A study of Homo sapiens with 38 samples.

Results

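Aminoacyl-tRNA synthetases join each amino acid to its transfer RNA, the step that prepares amino acids for the ribosome. The genes for 35 of these enzymes were examined in RKO cells, a line of human colorectal cancer cells. They were found in the deposited expression table by symbol, in the older form without the final digit (AARS for the gene now called AARS1), among 25504 genes with a symbol used once. All 35 symbols were found, 20 for enzymes of the cytosol and 15 for enzymes of mitochondria, whose symbols end in 2.

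RNA was sequenced from cells treated with DMSO (the solvent), NCD38, NCD38-β2P4 or NCD38-β2PIPP, collected on day 30 or day 4, with 1 library for each of the 8 conditions. NCD38 inhibits LSD1, an enzyme that removes methyl groups from lysine 4 of histone H3. The conjugates, labelled P4_NCD38 and PIPP_NCD38, carry in addition a pyrrole-imidazole polyamide, a compound that binds the minor groove of DNA. P4 was designed for runs of A and T, and PIPP for CG between A or T bases. The labels give 2 μM inhibitor with 0.1% DMSO for both days, while the Methods of the study give another unit for day 4, so the dose on day 4 is uncertain. All 8 libraries came from 1 cell line, and the culture, extraction or sequencing batch of the days is not given in the labels. Day and batch cannot be told apart.

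Expression was deposited as FPKM, the number of fragments scaled by exon length and by the mapped fragments of the library. FPKM therefore allows for the length of a gene when genes are set beside each other. It does not allow for GC content, the share of G and C bases in the transcript. Read counts were not used here. From the smallest FPKM steps, depth was estimated at 1.15e+07 to 2.19e+07 fragments per library, and the least covered member in any library had 36.5 fragments. The keratin genes KRT8 and KRT18 were detected in every library, at 6.58 to 19.0 and 76.2 to 121 FPKM. The leukocyte and endothelial genes PTPRC and PECAM1 were listed at 0, the fibroblast gene COL1A1 reached at most 0.0129 FPKM, and the epithelial cadherin gene CDH1 at most 0.0642. EPCAM, another epithelial gene, had 3.94 to 6.53 FPKM on day 30 and 0.0922 to 0.867 FPKM on day 4. It differed between the days without overlap, by 2.11 on the scale of the day comparison, whereas KRT8, KRT18 and the mesenchymal gene VIM overlapped, and its part in the day comparison was not tested.

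In human cells, most amino acids have separate enzymes for the cytosol and for mitochondria, encoded by separate nuclear genes. KARS and GARS each serve both compartments. EPRS encodes a single protein that charges both glutamate and proline tRNAs, while FARSA and FARSB encode the α and β subunits of the cytosolic phenylalanine enzyme. EPRS, IARS, LARS, MARS, QARS, RARS, KARS and DARS form the multisynthetase complex, held together by the scaffold proteins AIMP1, AIMP2 and EEF1E1. Many cytosolic synthetase genes are known targets of ATF4, the transcription factor of the amino acid response. WARS is in addition known as a gene induced by interferon-γ.

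ATF4, paired with a C/EBP protein, binds a composite element whose letters TTGCATCA were searched on both strands of RefSeq promoter windows (GRCh38.p14, 250 bases before to 50 bases after the start). Windows were given for 29 members, and none were given for AARS2, DARS, LARS, VARS, VARS2 and YARS. The element was present for 6 of 16 cytosolic members (AARS, CARS, IARS, MARS, NARS and TARS) and for 0 of 13 mitochondrial members. Across all genes with a window, 1.08% held it. The 6 elements are shown because they are a feature that these cytosolic genes share and that played no part in choosing them. Each is written 5′ to 3′ along its gene, with the element, or its reverse complement in NARS, in capitals.

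AARS (chr16:70289675-70289704, minus strand): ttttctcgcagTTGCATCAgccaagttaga
CARS (chr11:3057407-3057436, minus strand): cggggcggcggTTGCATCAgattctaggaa
IARS (chr9:92293692-92293721, minus strand): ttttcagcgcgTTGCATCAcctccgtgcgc
MARS (chr12:57488053-57488082, plus strand): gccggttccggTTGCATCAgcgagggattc
NARS (chr18:57621804-57621833, minus strand): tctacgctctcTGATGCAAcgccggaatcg
TARS (chr5:33440956-33440985, plus strand): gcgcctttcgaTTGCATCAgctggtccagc

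In 5 of these genes the element lay within 20 bases of the start site, and in AARS it began 187 bases upstream. The targets of the polyamides were searched in the same windows. A run of 6 A or T letters was present for 18 members (62.1%), against 66.1% of all genes. CG with 2 A or T letters on each side was present for 7 members (24.1%), namely IARS, KARS, TARS, WARS, FARS2, LARS2 and YARS2, against 18.9% of all genes.

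HARS and HARS2, the histidine enzymes of the cytosol and of mitochondria, lie head to head on chromosome 5 and share a promoter. The stretch from one start site to the other is shown because it serves both compartments. It runs from the start of HARS, transcribed leftwards, to the start of HARS2, transcribed rightwards, and is 86 bases long with 59.3% GC (GRCh38.p14, plus strand). Capitals mark CCGGAAGT, a site known for ETS-family factors, or its reverse complement, which was also searched on both strands.

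HARS and HARS2 (chr5:140691370-140691455): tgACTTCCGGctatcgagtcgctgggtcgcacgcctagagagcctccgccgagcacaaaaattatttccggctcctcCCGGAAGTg

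CCGGAAGT was present for 7 members, CARS, HARS, NARS, TARS, WARS, EARS2 and HARS2 (24.1%), against 4.95% of all genes. These matches describe the letters only, and no binding was measured.

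All 35 members were expressed, that is, their FPKM averaged at least 1 across libraries, as it did for 10865 genes in all. Cytosolic enzymes had higher levels than mitochondrial ones. On day 30 the mean FPKM of a cytosolic member was between 30.1 (VARS) and 129 (GARS), with a median of 69.3. The mean of a mitochondrial member was between 4.58 (WARS2) and 103 (CARS2), with a median of 7.71. CARS2, the mitochondrial cysteine enzyme, was the exception among its compartment and was the only one of 15 mitochondrial members above its cytosolic partner on day 30. On day 30, under DMSO, NCD38, NCD38-β2P4 and NCD38-β2PIPP in this order, it had 114, 98.9, 100.3 and 100.05 FPKM, whereas CARS had 44.3, 37.03, 42.6 and 41.7 FPKM. This order of treatments is kept wherever 4 values are given. The 4 values of CARS2 all lay above those of CARS. The plot of FPKM in each library shows this separation and the wider spread on day 4.

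The first comparison asked how the synthetase genes differed between day 30 and day 4, with the treatment as a block, so that the 4 libraries of a day stood as its repeats. It was a limma fit of log2(FPKM + 1) over all expressed genes with Benjamini-Hochberg adjustment, and differences are given on that scale with their standard error (SE). Of 20 cytosolic members, 8 rose and 5 fell from day 4 to day 30, and of 15 mitochondrial members, 5 rose and 7 fell. Among all expressed genes, 61.9% passed the same test, 30.2% higher and 31.7% lower on day 30, so the 25 members called (71.4%) stood against a background in which most genes were called. The median difference was 0.25 for cytosolic members and -0.43 for mitochondrial members, against -0.02 for all expressed genes. Without the DMSO libraries, 5 cytosolic members were called higher, and 2 mitochondrial members higher and 4 lower. Without the NCD38-β2P4 libraries the mitochondrial counts were also 2 and 4. The share of all expressed genes called was not worked out for these smaller fits. The FPKM ranges of the days did not overlap for 26 members (74.3%), against 62.6% of all expressed genes.

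The cytosolic members with the largest rise were EPRS, NARS, DARS and TARS. EPRS had 60.3, 44.9, 69.2 and 55.1 FPKM on day 30, and 5.42, 3.41, 10.7 and 19.5 FPKM on day 4. NARS, the asparagine enzyme, had 65.0, 55.8, 72.3 and 51.8 FPKM on day 30 and 6.42, 3.30, 16.4 and 24.0 FPKM on day 4. For both genes, every library of day 30 was above every library of day 4, and the spread within day 4 was the wider one.

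EPRS rose by 2.67 (SE 0.34, adjusted p = 0.0017 by limma). NARS rose by 2.51 (SE 0.45, adjusted p = 0.0051 by limma). In both, the smallest difference was between the NCD38-β2PIPP libraries of the days, 1.45 for EPRS and 1.08 for NARS, and the largest was between the NCD38 libraries, 3.38 and 3.72.

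DARS, the aspartate enzyme, had 36.7, 33.7, 43.1 and 37.9 FPKM on day 30, and 4.93, 3.85, 8.84 and 13.1 FPKM on day 4. TARS, the threonine enzyme, had 88.0, 95.2, 102 and 86.5 FPKM on day 30 and 15.0, 8.13, 25.9 and 34.97 FPKM on day 4. As in EPRS and NARS, the days did not overlap, and on day 4 the libraries took the order NCD38, DMSO, NCD38-β2P4, NCD38-β2PIPP from low to high. DARS rose by 2.28 (SE 0.25, adjusted p = 0.0011 by limma), and TARS by 2.27 (SE 0.34, adjusted p = 0.0029 by limma).

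RARS and LARS, the arginine and leucine enzymes of the same complex, followed. RARS had 37.5, 41.5, 47.9 and 40.3 FPKM on day 30 and 10.8, 4.36, 16.4 and 25.6 FPKM on day 4, and LARS had 38.2, 37.1, 45.99 and 35.01 against 11.1, 5.08, 17.8 and 26.1 FPKM. In neither did the days overlap. RARS rose by 1.70 (SE 0.37, adjusted p = 0.011 by limma) and LARS by 1.52 (SE 0.36, adjusted p = 0.014 by limma). Leaving out 1 DMSO library, of either day, lost both calls, with differences of 1.70 and 1.46, and leaving out 1 NCD38-β2P4 library lost that of LARS, at 1.58. FARSB rose by 0.88.

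FARSA and VARS, the phenylalanine α subunit and the valine enzyme, fell the most among cytosolic members. FARSA had 49.2, 42.4, 50.6 and 46.5 FPKM on day 30 and 111, 148, 115 and 98.7 FPKM on day 4. VARS had 33.97, 29.3, 30.4 and 26.6 FPKM on day 30 and 70.3, 95.2, 70.7 and 63.6 FPKM on day 4. Every library of day 30 was below every library of day 4, and the NCD38 library of day 4 was the highest for both. FARSA fell by 1.29 (SE 0.15, adjusted p = 0.0013 by limma) and VARS fell by 1.28 (SE 0.14, adjusted p = 0.0011 by limma). QARS (glutamine) fell by 1.17, SARS (serine) by 0.84 and YARS (tyrosine) by 0.54.

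AARS, CARS, HARS, IARS, KARS, MARS and WARS, the enzymes for alanine, cysteine, histidine, isoleucine, lysine, methionine and tryptophan, did not pass the test. WARS had 94.9, 59.4, 89.3 and 74.9 FPKM on day 30 and 76.6, 65.5, 82.9 and 80.6 FPKM on day 4, so the days overlapped, with a difference of 0.04 ± 0.30 (95% half-width). KARS had 104, 97.5, 119 and 102 FPKM on day 30 and 88.9, 65.4, 92.9 and 93.9 FPKM on day 4, and its difference of 0.32 missed the threshold (adjusted p = 0.059 by limma) although the days did not overlap. GARS, the other gene serving both compartments, rose by 0.74 (SE 0.20, adjusted p = 0.023 by limma) and had 138, 114, 144 and 119 FPKM on day 30 and 82.8, 42.6, 94.8 and 101 FPKM on day 4, without overlap. Its call was lost when 1 DMSO library was left out, at 0.74, or 1 NCD38-β2P4 library, at 0.79.

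Among mitochondrial members, TARS2 fell the most and IARS2 rose the most. TARS2, the threonine enzyme, had 9.35, 12.5, 11.7 and 9.12 FPKM on day 30 and 38.2, 38.9, 36.6 and 33.9 FPKM on day 4. IARS2, the isoleucine enzyme, had 24.5, 21.7, 29.7 and 30.6 FPKM on day 30 and 6.26, 2.78, 10.7 and 15.5 FPKM on day 4. In neither gene did the days overlap. TARS2 fell by 1.71 (SE 0.13, adjusted p = 0.00051 by limma), and IARS2 rose by 1.68 (SE 0.28, adjusted p = 0.0043 by limma).

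NARS2, the asparagine enzyme, had 7.64, 7.73, 8.18 and 7.78 FPKM on day 30 and 1.78, 1.15, 3.11 and 4.18 FPKM on day 4. EARS2, the glutamate enzyme, had 8.27, 6.90, 8.43 and 7.24 FPKM on day 30 and 19.8, 18.8, 18.9 and 19.70 FPKM on day 4. Both were separated by day, in opposite directions, and the libraries of a day were closest together for NARS2 on day 30 and for EARS2 on day 4. NARS2 rose by 1.39 (SE 0.25, adjusted p = 0.0050 by limma) and EARS2 fell by 1.22 (SE 0.13, adjusted p = 0.00097 by limma).

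LARS2, the leucine enzyme, had 5.95, 6.88, 6.20 and 4.66 FPKM on day 30 and 15.95, 10.8, 15.95 and 17.8 FPKM on day 4. SARS2, the serine enzyme, had 7.12, 7.02, 6.34 and 6.79 FPKM on day 30 and 15.7, 17.1, 15.1 and 12.6 FPKM on day 4. Both were lower in every library of day 30. LARS2 fell by 1.21 (SE 0.21, adjusted p = 0.0051 by limma) and SARS2 fell by 1.04 (SE 0.14, adjusted p = 0.0019 by limma).

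Of the other mitochondrial members, RARS2 rose by 0.96, YARS2 by 0.62 and CARS2 by 0.43. FARS2 fell by 0.84, AARS2 by 0.68 and VARS2 by 0.43. HARS2, MARS2 and WARS2 did not pass the test, with differences of -0.30, -0.43 and 0.30. The plot of day differences gives all 35 with their intervals.

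**Figure D1:**
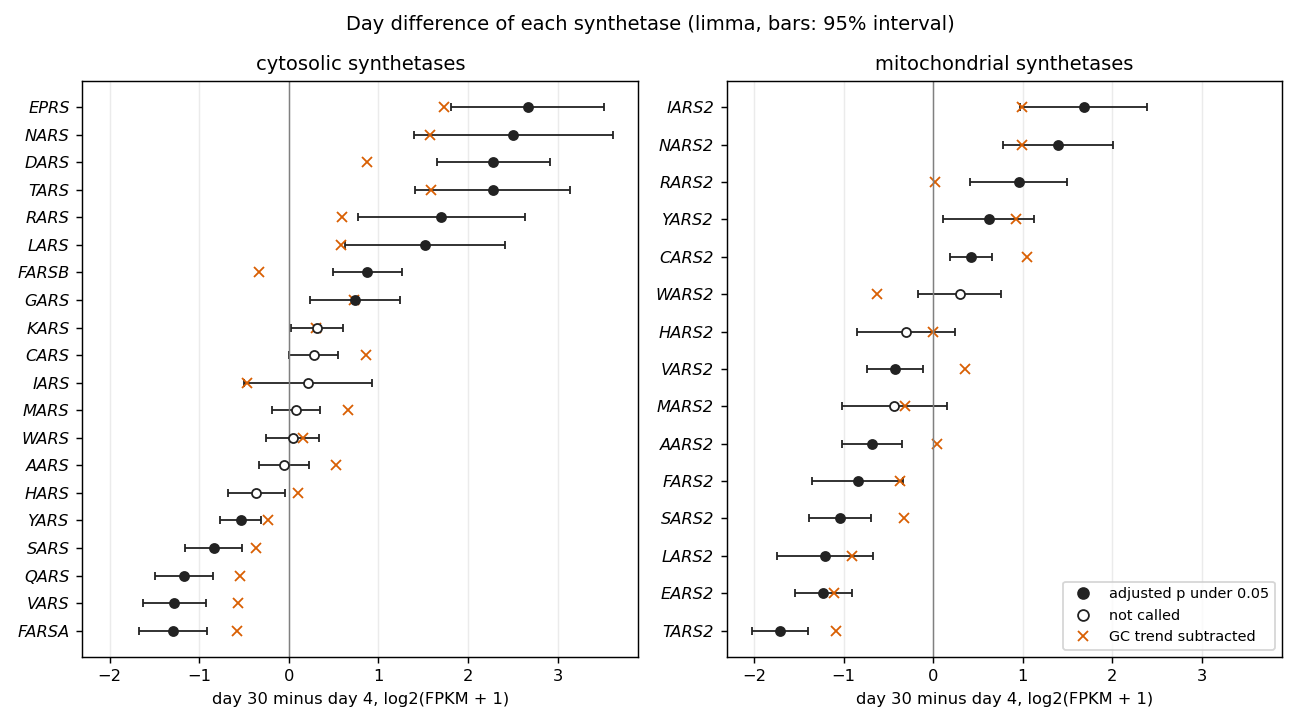
Difference between day 30 and day 4 of each synthetase gene in log2(FPKM + 1), from the limma fit, with the 95% interval as a bar, for cytosolic (left) and mitochondrial (right) genes. Filled circles mark adjusted p under 0.05, and crosses show the difference after the trend with transcript GC content was subtracted, which brings EPRS from 2.67 to 1.74 and DARS from 2.28 to 0.87.

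Enzyme partners for the same amino acid could move apart. The ratio of mean FPKM of EPRS to that of EARS2, which share glutamate, was 7.44 on day 30 and 0.505 on day 4. For TARS and TARS2 it was 8.72 and 0.569, and for LARS and LARS2 6.60 and 0.994. On day 4 EARS2 was above EPRS in all 4 libraries, TARS2 above TARS in all but that of NCD38-β2PIPP, and LARS2 above LARS with DMSO and NCD38 but below it with both conjugates. NARS and NARS2, and RARS and RARS2, rose together, with ratios of 7.81 and 4.90, and of 3.04 and 2.06. The transcripts of EPRS, TARS and LARS have 42.3%, 42.8% and 41.4% GC, and those of EARS2, TARS2 and LARS2 48.9%, 54.6% and 50.7%. NARS and NARS2 have 41.7% and 43.9%, and RARS and RARS2 41.1% and 41.8%. HARS and HARS2, which share the promoter printed above, had a ratio of 9.62 on day 30 and 9.68 on day 4. Their day differences were -0.36 and -0.30, and neither passed the test. HARS missed it narrowly (adjusted p = 0.051 by limma), and its days did not overlap. HARS2 was further from it (adjusted p = 0.27 by limma), and its days overlapped. The annotation used here (GENCODE on GRCh37) lets the HARS and HARS2 genes overlap by 108 bases on opposite strands, and whether strand was used in the estimation is not given in the sources used here.

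The day difference followed the GC content of the transcript. Across the 35 members, Pearson's r between day difference and GC content was -0.79 and Spearman's rho -0.79, and across the 10189 expressed genes with a GENCODE match these were -0.62 and -0.68. These are descriptions across genes of the same libraries, and genes are not independent replicates. Of 12 members under 45% GC, 10 rose and none fell, where 65.1% of all expressed genes of that class rose. Of 17 members of 50% GC or more, 11 fell and 1 rose (CARS2), where 58.1% of all such genes fell. Transcript length had Pearson's r of 0.12 with the difference across members. Whether the relation with GC content comes from the cells or from the libraries was not tested.

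**Figure D2:**
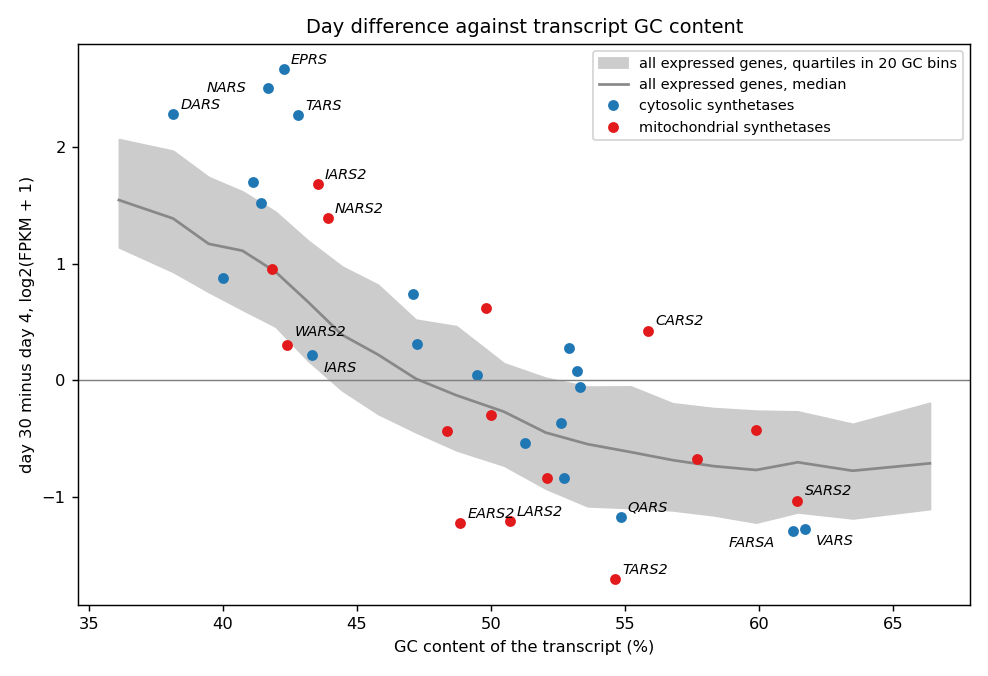
Difference between day 30 and day 4 in log2(FPKM + 1) against the GC content of the transcript in percent, for cytosolic (blue) and mitochondrial (red) synthetase genes, with the median (line) and quartiles (band) of all expressed genes in 20 bins of GC content. Members follow the falling band of all genes, with EPRS, NARS, TARS and CARS2 among those above it and TARS2, EARS2 and LARS2 among those below it.

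The fit was repeated after the median trend with GC content, in 20 bins of expressed genes, was subtracted in each library. There too 25 members were called, against 55.9% of the genes tested. Of these, 18 kept their direction, VARS2 changed from -0.43 to 0.36, and 6 were called only in this form. These 6 were AARS (0.53), CARS (0.86) and MARS (0.66), higher on day 30, and IARS (-0.47), WARS2 (-0.63) and MARS2 (-0.32), lower. EPRS (1.74), TARS (1.59), NARS (1.57), CARS2 (1.05), IARS2 (0.997) and NARS2 (0.99) stayed higher on day 30, and EARS2 (-1.11), TARS2 (-1.09) and LARS2 (-0.91) stayed lower. FARSB, at 0.88 without the subtraction, had -0.33 and was not called, as were SARS, YARS, AARS2, FARS2 and RARS2. The median of cytosolic members was then 0.42 and that of mitochondrial members 0.00.

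Subunits and complex partners were closest to each other in level on day 30. The ratio of FARSA to FARSB, whose products form one enzyme, was 1.13, 1.23, 1.11 and 1.18 on day 30, and 4.40, 11.3, 4.47 and 3.86 on day 4. The 4 libraries of day 4 all lay above those of day 30, and NCD38 was the highest. Across the 8 enzymes of the multisynthetase complex, the ratio of the highest to the lowest FPKM was 2.77 to 2.91 in the libraries of day 30. On day 4 it was 34.8, 60.3, 17.9 and 11.4, with QARS the highest in each and DARS or EPRS the lowest. FARSA has 61.3% GC and FARSB 40.0%, and QARS has 54.8%, DARS 38.1% and EPRS 42.3%. With the GC trend subtracted, the day difference was -0.58 for FARSA and -0.33 for FARSB. It was -0.55 for QARS, 0.87 for DARS and 1.74 for EPRS. The part of GC content in these ratios was not tested.

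**Figure D3:**
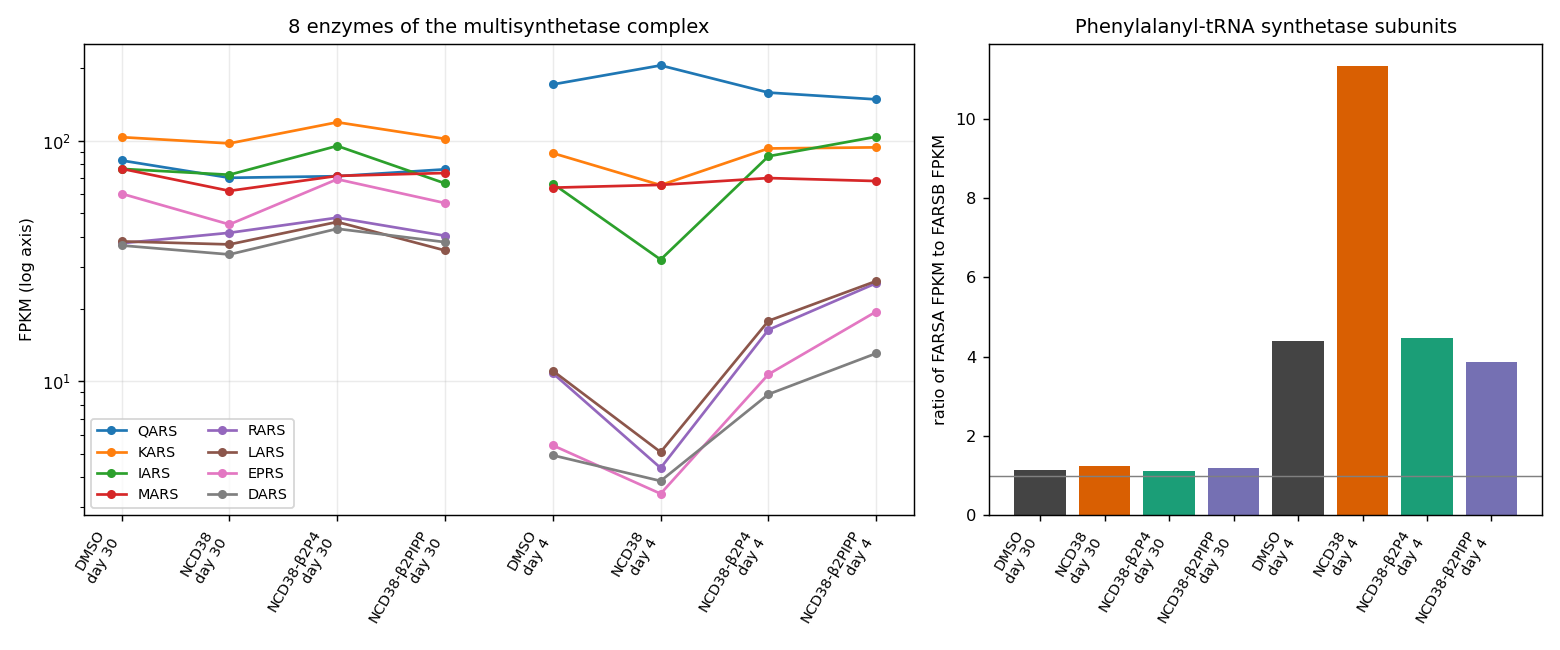
FPKM (log axis) of the 8 enzymes of the multisynthetase complex in each library (left, lines join libraries of the same day for reading only), and the ratio of FARSA to FARSB FPKM in each library (right, bars from 0, 1 library each). The enzymes lie within 2.91-fold of each other on day 30 and spread up to 60.3-fold on day 4, and the subunit ratio is 1.11 to 1.23 on day 30 and 3.86 to 11.3 on day 4.

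The scaffolds of the complex did not move as one. AIMP1 rose by 3.13 and EEF1E1 by 2.76 from day 4 to day 30, whereas AIMP2 fell by 1.19. AIMP1 had 21.1 to 29.0 FPKM on day 30 and 0.662 to 4.38 FPKM on day 4. Among all 8 complex enzymes, 4 rose (EPRS, DARS, RARS and LARS), 1 fell (QARS) and 3 did not pass (IARS, KARS and MARS). By structural class, 7 of 19 class I enzymes rose and 6 fell, and 6 of 16 class II enzymes rose and 6 fell. EPRS, which charges both glutamate and proline tRNAs, was counted in class I only. Among all expressed genes, 30.2% rose and 31.7% fell.

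Members known as ATF4 targets went both ways, as did all expressed genes, of which 30.2% rose and 31.7% fell. Of these 13, 5 rose (EPRS, GARS, LARS, NARS and TARS) and 3 fell (SARS, VARS and YARS), and of the other 7 cytosolic members 3 rose and 2 fell. Of the 6 with the element printed above, NARS and TARS rose, and AARS, CARS, IARS and MARS, between -0.06 and 0.28, did not pass. With the GC trend subtracted, 5 of these 6 were called higher and IARS lower, where 55.9% of the genes tested were called in either direction. The median was then 0.59 for the 13 ATF4 targets and 0.10 for the other 7 cytosolic members. Without the subtraction these medians stood in the opposite order, at 0.21 for the targets and 0.32 for the other 7. ATF4 itself rose by 1.87, from 262 to 952 mean FPKM. Of 19 expressed genes of the ATF4 response outside the synthetases, 8 rose and 3 fell, the former including ASNS (asparagine synthetase) at 2.07 and DDIT3 (the stress factor CHOP) at 2.12, and the latter including SLC7A5 (an amino acid transporter) at -1.46.

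Other steps of translation were mixed too, as were all expressed genes, of which 30.2% rose and 31.7% fell. Of 9 elongation factor genes, 2 rose (EEF1B2 0.85 and GFM2 1.20) and 3 fell (EEF2 -1.32, TUFM -0.84 and EEF1G -0.62). Of 73 mitochondrial ribosomal protein genes, 32 rose and 16 fell. PET112 (now GATB), GATC and QRSL1, whose products make glutaminyl-tRNA in mitochondria in place of a separate synthetase, had differences between -0.29 and 0.37, and none of the 3 passed the test, also at an unadjusted p under 0.05.

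The next comparison asked whether an inhibitor changed the synthetase genes over both days. Here the days stood as the repeats, 2 libraries for each treatment, in the same limma fit with the day as a block. An effect of an inhibitor that differs between the days counts as error in this fit and widens the intervals. None of the 35 members was called for NCD38, NCD38-β2P4 or NCD38-β2PIPP against DMSO (limma with Benjamini-Hochberg adjustment), where 0.0368%, 0.0184% and 0.0184% of all expressed genes were called. At an unadjusted p under 0.05 there were 2 members for NCD38, FARSB and WARS, and 0 for each conjugate. Of all 10865 expressed genes, 145, 32 and 62 were under it for NCD38, NCD38-β2P4 and NCD38-β2PIPP. The median 95% half-width was 0.51 for cytosolic and 0.72 for mitochondrial members, and that of cytosolic members ran from 0.32 to 1.57. These half-widths are not adjusted for the number of genes, so they do not set the smallest change that could be called. Changes larger than the half-width could also go uncalled, as did FARSB with NCD38, at -0.61. The 3 contrasts share their DMSO libraries.

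For NCD38 the largest differences were in FARSB at -0.61 (95% interval -1.16 to -0.07), GARS at -0.61 (-1.32 to 0.10) and IARS2 at -0.56 (-1.56 to 0.45). For NCD38-β2P4 they were in NARS at 0.69 (-0.88 to 2.26), EPRS at 0.53 (-0.68 to 1.74) and TARS at 0.48 (-0.73 to 1.70). For NCD38-β2PIPP they were in EPRS at 0.77 (-0.44 to 1.99), IARS2 at 0.75 (-0.25 to 1.75) and NARS at 0.72 (-0.86 to 2.29). All these intervals but that of FARSB included 0. Without the NCD38 library of day 4, IARS2 had 0.05 with NCD38, and without the NCD38-β2PIPP library of day 4, EPRS had -0.04 and NARS -0.24 with NCD38-β2PIPP. WARS, KARS and GARS had -0.44, -0.26 and -0.61 with NCD38, 0.01, 0.13 and 0.13 with NCD38-β2P4, and -0.13, 0.03 and 0.04 with NCD38-β2PIPP.

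The inhibitors were also compared with each other, as 3 pairs over both days, since the conjugates differ from NCD38 by the added polyamide and from each other by an imidazole in place of a pyrrole. None of the members was called in any pair (limma with Benjamini-Hochberg adjustment), where 0.0092% of all expressed genes were called for NCD38-β2P4 against NCD38, 0.0184% for NCD38-β2PIPP against NCD38 and 0.0276% between the conjugates. At an unadjusted p under 0.05 there were 6, 4 and 0 members, and 352, 692 and 34 of all 10865 expressed genes. NCD38-β2P4 was above NCD38 by 1.19 in NARS (-0.38 to 2.77), by 1.03 in IARS2 (0.03 to 2.04) and by 1.01 in EPRS (-0.20 to 2.22). NCD38-β2PIPP was above NCD38 by 1.30 in IARS2 (0.30 to 2.31), by 1.25 in EPRS (0.04 to 2.46) and by 1.22 in NARS (-0.36 to 2.79). Between the conjugates, the largest difference was 0.27 in IARS2 (-0.73 to 1.27), followed by EPRS at 0.24 (-0.97 to 1.45) and TARS2 at -0.21 (-0.66 to 0.23), intervals that leave room for differences of either sign. Without the NCD38-β2PIPP library of day 4, IARS2 had -0.23 and EPRS -0.57 in this pair.

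Each inhibitor library was then set against the DMSO library of its own day. These log2 ratios of FPKM + 1 have no replicate, so no test was made, and their 95% counting half-widths cover counting error only. They were counted past 1.5-fold. The plot of ratios by library shows a narrow spread on day 30 and a wide one on day 4.

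**Figure D4:**
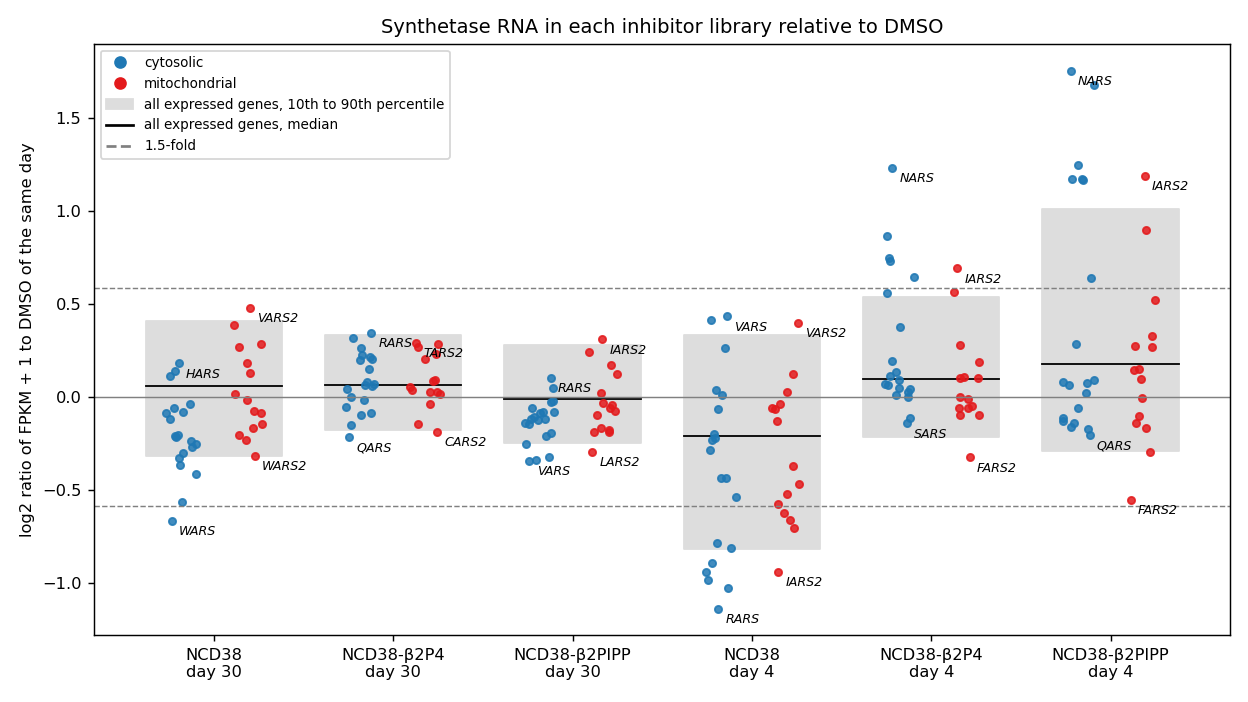
Log2 ratio of FPKM + 1 in each inhibitor library to the DMSO library of the same day for cytosolic (blue) and mitochondrial (red) synthetase genes, 1 point per gene, with the highest and lowest gene of each compartment named. Grey boxes give the 10th to 90th percentile and black lines the median of all expressed genes, dashed lines mark 1.5-fold, and 1 gene, WARS, lies past 1.5-fold on day 30.

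On day 30, most cytosolic synthetases were below DMSO with NCD38. Their median ratio was -0.21, against 0.06 for all expressed genes, and 17 of 20 were below DMSO, as were 40.0% of all expressed genes. WARS was the lowest at -0.67 ± 0.07 (counting half-width), with 59.4 FPKM against 94.9, and was the only member past 1.5-fold lower, as were 2.80% of expressed genes. AARS followed at -0.57, EPRS at -0.42, SARS at -0.37 and FARSB at -0.33. HARS, RARS and TARS were the 3 above DMSO, at 0.18, 0.14 and 0.11. Mitochondrial members had a median of -0.02, and VARS2 was the highest of all members at 0.48 ± 0.15, with 14.3 FPKM against 9.99. No member was past 1.5-fold higher, as were 4.00% of expressed genes.

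Of the 13 ATF4 targets, 12 were below DMSO with NCD38 on day 30, with a median of -0.25, as were 40.0% of all expressed genes. Of the 7 other cytosolic members 5 were below, with a median of -0.12. The 19 genes of the ATF4 response outside the synthetases had a median of -0.06, with 11 below DMSO. The 6 genes with the printed element had ratios from -0.57 (AARS) to 0.11 (TARS).

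With NCD38-β2P4 on day 30, no member was past 1.5-fold in either direction, as were 1.43% of expressed genes higher and 0.874% lower. The median was 0.07 for cytosolic and 0.05 for mitochondrial members, against 0.06 for all. RARS was the highest at 0.34 ± 0.11 and QARS the lowest at -0.21 ± 0.08. The 18 members with a run of A or T in the window had a median of 0.07, and the 11 without one 0.09.

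With NCD38-β2PIPP on day 30, again no member was past 1.5-fold, as were 1.72% of expressed genes higher and 0.911% lower. The median was -0.12 for cytosolic and -0.06 for mitochondrial members, against -0.01 for all. Of the cytosolic members, 18 of 20 were below DMSO, as were 52.8% of expressed genes. These included all 13 ATF4 targets, with a median of -0.15, and 5 of the other 7, whose median was -0.08. With NCD38-β2P4 on day 30, 5 of the 13 targets were below DMSO, as were 36.7% of expressed genes. IARS2 was the highest at 0.31 ± 0.09 and VARS the lowest at -0.34 ± 0.08, next to WARS at -0.34. The 7 members with CG between A or T letters had a median of -0.08, and the 22 without it -0.11.

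On day 4, 11 members were past 1.5-fold lower with NCD38, as were 22.5% of expressed genes. They were the cytosolic RARS, IARS, LARS, GARS, FARSB, TARS and NARS and the mitochondrial IARS2, RARS2, WARS2 and YARS2. RARS was the lowest at -1.14 ± 0.30, and VARS the highest at 0.43 ± 0.06. No member was past 1.5-fold higher, as were 2.10% of expressed genes. The median was -0.36 for cytosolic and -0.37 for mitochondrial members, against -0.21 for all.

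With the conjugates on day 4, the members past 1.5-fold were all higher. With NCD38-β2P4, 6 members were past 1.5-fold higher, as were 7.87% of expressed genes, and none lower, as were 1.68%. These were NARS (1.23 ± 0.20, the highest), EPRS, TARS, DARS and LARS, and the mitochondrial IARS2. With NCD38-β2PIPP, 9 members were past 1.5-fold higher, as were 27.1% of expressed genes, and none lower, as were 1.91%. These were NARS (1.75 ± 0.19, the highest), EPRS (1.68), DARS, RARS, LARS, TARS and IARS, and the mitochondrial IARS2 and NARS2. FARS2 was the lowest with both, at -0.33 ± 0.26 and -0.56 ± 0.27. With NCD38-β2P4 the median was 0.10 for cytosolic and -4.3e-05 for mitochondrial members, against 0.09 for all expressed genes. Of the mitochondrial members, 8 of 15 were below DMSO, as were 33.9% of all expressed genes. With NCD38-β2PIPP the medians were 0.08 for cytosolic and 0.14 for mitochondrial members, against 0.17 for all.

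The ratios of day 4 also followed GC content across the 35 members. Pearson's r was 0.84 for NCD38, -0.70 for NCD38-β2P4 and -0.76 for NCD38-β2PIPP, and the 3 share the DMSO library of day 4. On day 30 it was 0.10, -0.63 and -0.04. With the GC trend subtracted, 1 member (RARS) was past 1.5-fold lower with NCD38 on day 4, where 4.58% of genes were. With NCD38-β2P4, 1 (NARS) was past 1.5-fold higher, against 1.69% of genes, and with NCD38-β2PIPP, 2 (NARS and EPRS) were, against 5.51%. FARSB (-0.81) and FARS2 (-0.61) were then past 1.5-fold lower with NCD38-β2PIPP, where 5.03% of genes were. The median of cytosolic members on day 4 was then 0.02, 0.06 and -0.03 for the 3 inhibitors, and NARS, the highest member with both conjugates, had 0.88 and 1.01. For NCD38 on day 30 the subtraction left the cytosolic median at -0.24 and WARS at -0.73.

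In level, 15 members took the order NCD38, DMSO, NCD38-β2P4, NCD38-β2PIPP from low to high on day 4, as did 44.4% of all expressed genes. Of the 12 members under 45% GC, 10 did so, against 80.2% of all expressed genes of that class. The range between the libraries of a day was wider on day 4 for 27 members, against 75.6% of expressed genes. The summed FPKM of all cytosolic members varied less, from 1223 to 1497 on day 30 and from 1241 to 1413 on day 4, with NCD38 the lowest on both days. That of mitochondrial members was 245 to 257 on day 30 and 236 to 270 on day 4.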

How the data were processed

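RNA was sequenced from 8 conditions of RKO cells with 1 library each. In the study, stranded mRNA libraries were aligned with TopHat, and the authors deposited FPKM estimated with Cufflinks. The submitters' processing notes name HISAT2 2.2.1.0, BWA 0.5.9, bedtools 2.20.1 and hg19 as well, without their roles. The ChIP-seq samples were not analysed here. Of 25594 entries, 90 with a repeated symbol were left out. FPKM holds no counts, so log2(FPKM + 1) was tested with limma 3.58.1 in R 4.3.3, with treatment and day as terms, a variance trend, and Benjamini-Hochberg adjustment over 10865 genes with a mean FPKM of at least 1. The added 1 makes changes of low genes smaller. The fit leaves 3 residual degrees of freedom, and whether libraries came from separate cultures is not stated. Calls are at an adjusted p of 0.05. The limma fit was tested on simulated data, for the day comparison only. Depth and counting half-widths rest on GENCODE lengths (release 44 on GRCh37), with 93.8% of expressed genes and all 35 members matched. Other work used Python 3.11.15. All 35 members are named. FPKM in every library is given for the 8 cytosolic and 6 mitochondrial members with the largest day difference and for WARS, KARS, GARS and EPRS, contrasts over both days for the 3 largest, and single days for the highest and lowest member. Other genes and members named beside these were chosen after their values were seen. The members and gene lists were chosen with earlier results of these data known. Promoter sequences are from RefSeq. Alternatives changed the pseudocount, filter, scaling, GC trend, model, comparator, fold threshold and libraries.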

Additional observations from a re-analysis of the deposited data

Results flagged for a closer look

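These results were marked because the ratio to DMSO of the same day went opposite ways on day 30 and day 4, each beyond its counting half-width and on one day past 1.5-fold. The difference between the days was not tested, since each ratio rests on 1 library against 1.

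With NCD38, RARS had a log2 ratio of 0.14 on day 30 and -1.14 on day 4, TARS 0.11 and -0.81, and YARS2 0.13 and -0.63. With the trend in GC content subtracted, RARS had 0.01 and -0.70, TARS 0.01 and -0.22, and YARS2 0.11 and -0.28. With NCD38-β2PIPP, EPRS had -0.13 on day 30 and 1.68 on day 4, NARS -0.32 and 1.75, LARS -0.12 and 1.17, and IARS -0.20 and 0.64. With the trend subtracted, EPRS had -0.13 and 0.94, NARS -0.33 and 1.01, LARS -0.13 and 0.43, and IARS -0.22 and -0.03, so that IARS no longer went opposite ways. The medians with NCD38-β2PIPP also changed sign, from -0.12 on day 30 to 0.076 on day 4 for cytosolic members and from -0.06 to 0.14 for mitochondrial members, as did that of all expressed genes, from -0.01 to 0.17. With the trend subtracted, neither changed sign, at -0.11 and -0.03 for cytosolic and -0.05 and -0.07 for mitochondrial members.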

How the results depend on the processing

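No paired analysis was possible by replicate number because the labels number no replicates and a condition is 1 library. The day comparison paired the days by treatment, and without that block 8 cytosolic members were higher and 6 lower, and 5 mitochondrial members higher and 7 lower. Of 960 values computed under the alternatives, 879 led to the same sign and call, or stayed within counting error or 1.5 times for a count. The day counts moved by over 1.5 times only where libraries were left out. There, cytosolic members higher on day 30 ranged from 5 to 8, mitochondrial members higher from 2 to 5, and mitochondrial members lower from 4 to 9, and under the other alternatives from 8 to 10, 4 to 5 and 6 to 7. Cytosolic members lower ranged from 4 to 6 over all alternatives. The lowest values, 5, 2 and 4, came without 1 or both DMSO libraries, and 2 and 4 also without 1 or both NCD38-β2P4 libraries. For these day counts, the share of all expressed genes was worked out only for the main fit and with the GC trend subtracted. WARS, not called, ranged from -0.046 to 0.10 where libraries were left out, with -0.046 without 1 or both DMSO libraries, and had 0.16 with the GC trend subtracted. Of the members named with their test, LARS and GARS lost their call where DMSO or NCD38-β2P4 libraries were left out, and RARS where DMSO libraries were. These were 15 values, at adjusted p (limma) of 0.0503 to 0.0844. They are not separate fits, since 1 fit gave values for several genes. Leaving out 1 or both libraries of a treatment gave the same difference for a gene.

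For differences over both days, leaving out 1 library gave -1.16 to 0.049 for IARS2 with NCD38, and -0.036 to 1.58 for EPRS and -0.24 to 1.67 for NARS with NCD38-β2PIPP. Between the conjugates it gave -0.23 to 0.77 for IARS2 and -0.57 to 1.05 for EPRS.

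When the DMSO library came from the other day, counts past 1.5-fold also held the day difference. On day 30 they were 10 higher and 11 lower for NCD38, 11 and 10 for NCD38-β2P4, and 10 and 11 for NCD38-β2PIPP. On day 4, 11 were higher for NCD38, 11 higher and 11 lower for NCD38-β2P4, and 8 lower for NCD38-β2PIPP, and NARS had -1.92 with NCD38-β2P4 and -1.4 with NCD38-β2PIPP. Rescaling by the median ratio gave 2 lower for NCD38 on day 30, 4 higher and 4 lower for NCD38 on day 4, and 1 lower for NCD38-β2PIPP on day 4. Subtracting the GC trend gave, on day 4, 1 lower for NCD38, 1 higher for NCD38-β2P4, and 2 higher and 2 lower for NCD38-β2PIPP. Pseudocounts of 0.1 and 0.01 each gave 1 lower for NCD38-β2PIPP on day 4. Past 2-fold there were 0 lower for NCD38 on day 30, and on day 4 2 lower for NCD38 and 1 higher for NCD38-β2P4. The cause of these changes was not tested. At the estimated depth, 2 members had fewer than 100 fragments in some library.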
